A study of Homo sapiens with 10 samples.

Results

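The 10 genes described here are the D cyclins CCND1, CCND2 and CCND3, their kinases CDK4 and CDK6, the CDK inhibitors CDKN1A, CDKN1B, CDKN1C and CDKN2C, and the retinoblastoma gene RB1. They were chosen by name, and every array feature whose RefSeq accession belongs to one of them was taken. All 10 had at least 1 such feature and all 10 were tested, out of 17309 genes tested. Of those 17309, 11958 had a matched gene symbol, and each other accession or identifier was counted as a gene. Shares over all genes tested rest on this mixed set. CDKN1B had 2 features and each of the other genes had 1. The samples came from MEG-01, a line derived from human megakaryoblastic leukemia. Cells were transfected by nucleofection either with 200 nM of a pre-miR-1225-3p precursor or with 200 nM of a scrambled precursor, and RNA was taken after 24 hours from 5 transfections of each kind. One label of the scrambled samples reads as no treatment, but their titles and the treatment protocol describe transfection with the negative control, which was taken as correct. Both groups share 1 cell line, the transfection and the collection time. The level of miR-1225-3p itself was not analysed here.

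The transfected microRNA, hsa-miR-1225-3p, is shown because it is the difference in treatment that the labels give. In RefSeq (GRCh38.p14) its mature sequence lies at chr16:2090195-2090216 on the minus strand, within the bounds of the gene PKD1. It is written 5′ to 3′, and the capitals mark the seed, bases 2 to 8 of the 22 bases.
hsa-miR-1225-3p: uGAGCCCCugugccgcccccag
No match of this seed to the 10 transcripts was sought, because transcript sequences were not used here.

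D cyclins are made when cells receive growth signals. They bind CDK4 or CDK6, and the active kinases phosphorylate the retinoblastoma protein, which then releases E2F transcription factors and lets the cell pass from G1 into S phase. INK4 proteins such as p18, made from CDKN2C, bind the kinases CDK4 and CDK6 themselves, while the CIP/KIP proteins p21, p27 and p57, made from CDKN1A, CDKN1B and CDKN1C, bind cyclin-kinase complexes and also act on CDK2. In megakaryocytes D cyclins are further known for their part in endomitosis, by which these cells become polyploid before they shed platelets.

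In each array the signal was an Agilent processed intensity in 1 colour. It was taken as log2 and normalized across the 10 arrays, so that a difference of 1 is a doubling of signal. Levels can be compared between arrays for 1 feature, not between features. A gene was called when its adjusted p from limma was under 0.05, with Benjamini-Hochberg adjustment over all genes tested. Spots well above background made up 41.95% to 53.85% on the miR-1225-3p arrays and 43.09% to 61.18% on the scrambled arrays. The arrays lay on 2 slides, and slide 1 held 2 miR-1225-3p and 3 scrambled arrays. On the first principal component, which held 69.6% of the variance, miR-1225-3p replicate 5 scored 56.8, within the scrambled range of 48.7 to 79.9, while miR-1225-3p replicates 1 to 4 scored -133.4 to -53.0. Counts of calls are therefore given with and without replicate 5. As replicate 5 was set apart by its own values, larger differences and more calls without it follow in part from that choice. Values and p-values without it are given as a description, not as further evidence. Of 14 megakaryocyte markers, 13 were on the arrays and 12 were well above background on at least 1 array; 7 were so on all 10, among them ITGA2B, GATA1, NFE2 and TAL1. PF4, a platelet chemokine, was well above background on 0 of 10 arrays. The mean log2 signal over the 9 megakaryocyte markers tested was 7.78 to 8.60 on the miR-1225-3p arrays and 8.68 to 8.75 on the scrambled arrays, and its part in the results was not tested. CD79A, CD3D and EPCAM, markers of B, T and epithelial cells, were also well above background on all 10 arrays, whereas MS4A1, CD2 and CDH1 were so on 0.

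Of the 10 genes, CDK6 and CDKN2C were higher and CCND1 and CCND2 were lower in miR-1225-3p cells by limma, and the other 6 did not pass the threshold. Over all genes tested, 35.1% passed, 17.0% higher and 18.1% lower, so that 4 of 10 lay near the background share. The count of 4 includes CCND1, which met the signal filter only through the scrambled arrays, where it was higher. With a filter asking for signal on all 10 arrays, 2 of 8 genes tested passed, 2 higher and 0 lower. Over all genes, that filter gave 4696 of 12008, 2392 higher and 2304 lower. The miR-1225-3p and scrambled arrays did not overlap for CDK6 and CDKN2C, that is for 2 of the 10 genes, against 12.7% of all genes. The median log2 fold change was -0.36 over the 10 genes and -0.06 over all genes tested. Without miR-1225-3p replicate 5, 7 of the 10 passed, 2 higher and 5 lower, against 55.6% of all genes tested. Of the 17209 genes tested in that fit, 4561 were higher and 5012 lower. Of the 10 genes, 8 were well above background on all 10 arrays, the exceptions being CCND1 and CCND2. As RNA came from whole cultures, fewer expressing cells and less RNA per cell cannot be told apart.

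**Figure D1:**
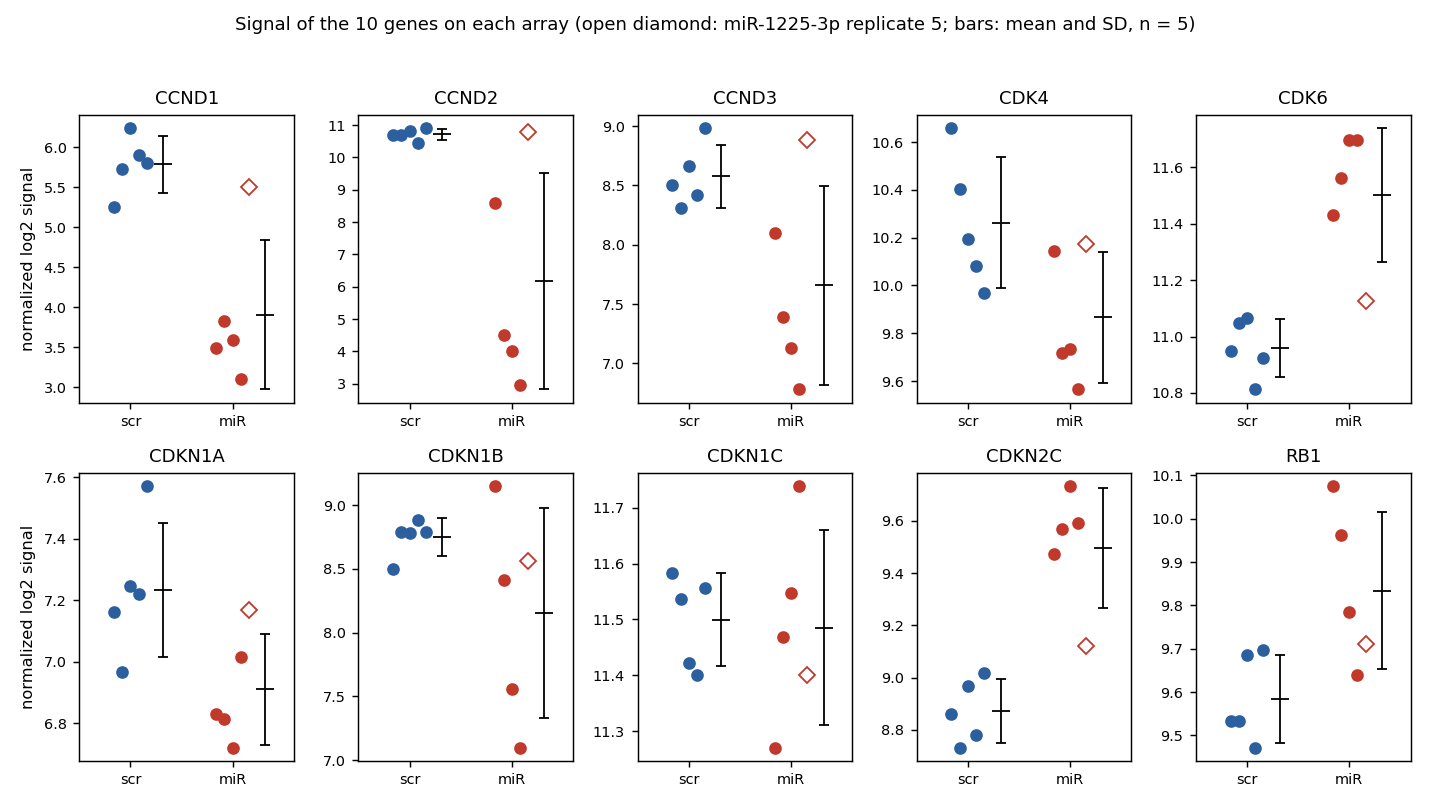
Normalized log2 signal of the 10 genes on each array, 1 panel per gene with its own axis, for 5 scrambled (scr, blue) and 5 miR-1225-3p (miR, red) arrays; bars give the mean and SD (n = 5) and the open diamond is miR-1225-3p replicate 5. CDK6 and CDKN2C show no overlap between groups, and in the CCND2 panel the diamond lies at 10.78 among the scrambled arrays, while the other miR-1225-3p arrays lie between 2.96 and 8.59.

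CCND2 (NM_001759), the D cyclin that growth signals and STAT5 raise in blood cells, showed the largest change of the 10 genes. Its normalized log2 signal on the scrambled arrays was 10.69, 10.71, 10.81, 10.46 and 10.92 in replicates 1 to 5. On the miR-1225-3p arrays it was 8.59, 4.52, 4.00, 2.96 and 10.78. Replicates 1 to 4 lay below every scrambled array and replicate 5 lay among them, so the groups overlapped by 1 array. The feature was well above background on all 5 scrambled arrays and on 3 of 5 miR-1225-3p arrays, replicates 3 and 4 being the exceptions and replicate 2 being so on 1 of its 2 spots. The means were 6.17 ± 3.35 (SD, n = 5) and 10.72 ± 0.17 (SD, n = 5), a log2 fold change of -4.55 (SE 1.32, 95% confidence interval -7.49 to -1.61, adjusted p = 0.0281 by limma, two-sided exact permutation p = 0.0317). Its size depended on how low signals were treated. Normexp correction of the median signal, with an offset of 50 that itself shrinks differences between dim signals, gave -2.85 (adjusted p = 0.0220 by limma). The parts of the correction and of the offset were not separated. Leaving out 1 array moved it between -5.70 and -3.75, and the call was lost on leaving out any of 7 arrays, miR-1225-3p replicates 2, 3 or 4 or scrambled replicates 1, 2, 3 or 4 (adjusted p of 0.0519 to 0.0702 by limma). The value of -5.70 was that without miR-1225-3p replicate 5 (adjusted p = 0.00101 by limma). Within slides 1 and 2 it was -4.26 and -4.67 (adjusted p = 0.0483 and 0.493 by limma), and on slide 2, with 3 against 2 arrays, no gene of all those tested passed by limma (1225 had an unadjusted p under 0.05).

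CCND1 (NM_053056), the cyclin best known as a target of mitogen and Wnt signals, was lower in miR-1225-3p cells, from a low level. The log2 signal, a mean of 10 spots per array, was 5.26, 5.72, 6.24, 5.90 and 5.80 on scrambled replicates 1 to 5 and 3.49, 3.83, 3.59, 3.104 and 5.50 on miR-1225-3p replicates 1 to 5. As for CCND2, the only miR-1225-3p array inside the scrambled range was replicate 5. The feature was well above background on 4 of 5 scrambled arrays, and on 1 of 5 miR-1225-3p arrays, replicate 5. It therefore met the filter, at least 3 arrays of 1 group or the other, only through the scrambled arrays, where it was higher. Its call and size are limited by this. The groups differed by -1.88 on the log2 scale (SE 0.405, 95% confidence interval -2.78 to -0.98, adjusted p = 0.0147 by limma, two-sided exact permutation p = 0.0159), between means of 3.90 ± 0.93 and 5.79 ± 0.36 (SD, n = 5 each). The call held on leaving out any 1 array, with values of -2.28 to -1.68, but each of these fits used the same filter. Within slides 1 and 2 the difference was -2.11 and -1.75 (adjusted p = 0.0173 and 0.493 by limma). With the normexp correction and its offset of 50 the value shrank to -0.49 (adjusted p = 0.0248 by limma).

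CCND3 (NM_001760), the D cyclin linked most closely to megakaryocyte endomitosis, did not pass the threshold. It was well above background on all 10 arrays, with log2 signals of 8.51, 8.31, 8.66, 8.42 and 8.99 on the scrambled arrays and 8.10, 7.39, 7.13, 6.78 and 8.89 on the miR-1225-3p arrays. Replicates 1 to 4 of miR-1225-3p lay below all scrambled arrays and replicate 5 did not. Its log2 fold change was -0.92 (SE 0.360, 95% confidence interval -1.72 to -0.12, adjusted p = 0.0680 by limma, two-sided exact permutation p = 0.0714), and within slides 1 and 2 it was -0.97 and -0.76. Leaving out miR-1225-3p replicate 5 gave -1.23 (adjusted p = 0.00336 by limma).

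Of the kinases that D cyclins bind, CDK6 was called higher and CDK4 was not called. CDK6 (NM_001259), the partner prominent in blood cells, had log2 signals of 10.95, 11.05, 11.06, 10.81 and 10.93 on the scrambled arrays and 11.43, 11.56, 11.70, 11.70 and 11.13 on the miR-1225-3p arrays. Every miR-1225-3p array, replicate 5 included, lay above every scrambled array, though replicate 5 lay closest to them. This was a log2 fold change of 0.54 (SE 0.141, 95% confidence interval 0.23 to 0.86, adjusted p = 0.0210 by limma), a 1.46-fold rise, with a two-sided exact permutation p of 0.00794, the smallest that 5 against 5 arrays can give. The call was lost without miR-1225-3p replicate 2 (adjusted p = 0.0558 by limma) or replicate 3 (0.0553). Within slide 1 the value was 0.52 and within slide 2 it was 0.58, neither passing the threshold (adjusted p = 0.0717 and 0.493 by limma). Without normalization between arrays it was 0.60 and did not pass either (adjusted p = 0.340 by limma).

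CDK4 (NM_000075), the other kinase, had log2 signals of 10.66, 10.41, 10.20, 10.08 and 9.97 on the scrambled arrays and 10.14, 9.72, 9.74, 9.56 and 10.18 on the miR-1225-3p arrays. The groups overlapped, with miR-1225-3p replicates 1 and 5 inside the scrambled range. CDK4 had a difference of -0.40 on the log2 scale (SE 0.181, 95% confidence interval -0.80 to 0.0065, adjusted p = 0.106 by limma, two-sided exact permutation p = 0.0635). It was 0.0072 when each array was scaled to its 75th percentile, where the median of all genes moved from -0.06 to 0.16, and relative to that median it was -0.15. Leaving out miR-1225-3p replicate 5 gave -0.47 (adjusted p = 0.0451 by limma), and within slides 1 and 2 it was -0.35 and -0.42.

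Differences between features of the same array do not depend on a shift common to all features. Those given here were chosen after the values above had been seen, so they are a description, with no test. CDK6 minus CDK4 was 1.64 ± 0.50 on the miR-1225-3p arrays and 0.70 ± 0.26 on the scrambled arrays (SD, n = 5 each). The groups overlapped narrowly, the lowest miR-1225-3p array being at 0.951 and the highest scrambled array at 0.955. CCND2 minus CCND3 was -1.49 ± 2.52 and 2.14 ± 0.17 (SD, n = 5 each), and the highest miR-1225-3p array, replicate 5, was at 1.89 against a scrambled minimum of 1.93. The size of this second difference is limited by background, since CCND2 was well above it on 0 of 2 spots on miR-1225-3p replicates 3 and 4 and on 1 of 2 spots on replicate 2.

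**Figure D2:**
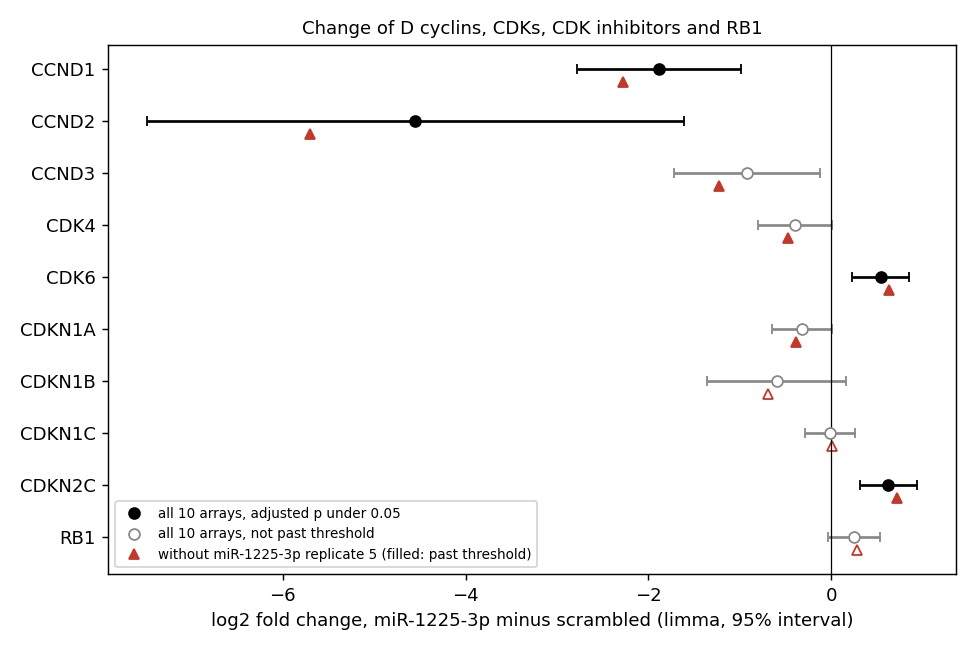
Log2 fold change of each gene, miR-1225-3p minus scrambled, with its 95% confidence interval from limma over all 10 arrays (circles, filled where the adjusted p was under 0.05) and the value without miR-1225-3p replicate 5 (triangles, filled likewise). CCND2 lies at -4.55 with the widest interval, CDK6 and CDKN2C lie above 0, and each of the 4 called genes lies further from 0 without replicate 5.

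Among the inhibitors, CDKN2C (NM_078626) was the one called. It encodes p18, which binds CDK4 and CDK6 and hinders their binding of cyclins. Log2 signals were 8.86, 8.73, 8.97, 8.78 and 9.02 on the scrambled arrays and 9.47, 9.57, 9.73, 9.59 and 9.12 on the miR-1225-3p arrays. All 5 miR-1225-3p arrays lay above all 5 scrambled arrays, and replicate 5 was again the nearest to them. CDKN2C thus had a log2 fold change of 0.63 (SE 0.141, 95% confidence interval 0.31 to 0.94, adjusted p = 0.0156 by limma, two-sided exact permutation p = 0.00794), a 1.54-fold rise. The call held on leaving out any 1 array, with values of 0.57 to 0.72, and was lost without normalization between arrays (0.52, adjusted p = 0.427 by limma) and within slides 1 and 2 (0.57 and 0.73, adjusted p = 0.0570 and 0.493).

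CDKN1B, which encodes p27, was read by 2 features that gave different calls. The brighter feature, with 10 spots per array, had log2 signals of 8.50, 8.79, 8.78, 8.89 and 8.79 on the scrambled arrays and 9.15, 8.41, 7.56, 7.10 and 8.56 on the miR-1225-3p arrays. Replicate 1 of miR-1225-3p lay above every scrambled array, replicates 2, 3 and 4 lay below them, and replicate 5 lay among them. Its log2 fold change was -0.59 (SE 0.343, 95% confidence interval -1.36 to 0.17, adjusted p = 0.186 by limma, two-sided exact permutation p = 0.190). The sign turned within slide 1, where the value was 0.090, against -1.10 within slide 2.

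The other CDKN1B feature, with 1 spot per array, had log2 signals of 8.64, 8.54, 8.75, 8.76 and 9.01 on the scrambled arrays and 7.45, 7.51, 7.39, 7.32 and 8.85 on the miR-1225-3p arrays. Here replicates 1 to 4 lay close together and below every scrambled array, and replicate 5 lay among the scrambled arrays. This feature gave -1.04 (SE 0.282, adjusted p = 0.0237 over all probes by limma, two-sided exact permutation p = 0.0397). The mean of both features gave -0.82 (adjusted p = 0.0380 by limma). The first feature minus the second was 0.45 ± 0.84 on the miR-1225-3p arrays and 0.0092 ± 0.19 on the scrambled arrays (SD, n = 5 each), and the scrambled values lay within the miR-1225-3p range. The features differed most on miR-1225-3p replicate 1, by 1.70. Both features carry the accession NM_004064, and where each lies on the transcript was not analysed here.

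**Figure D3:**
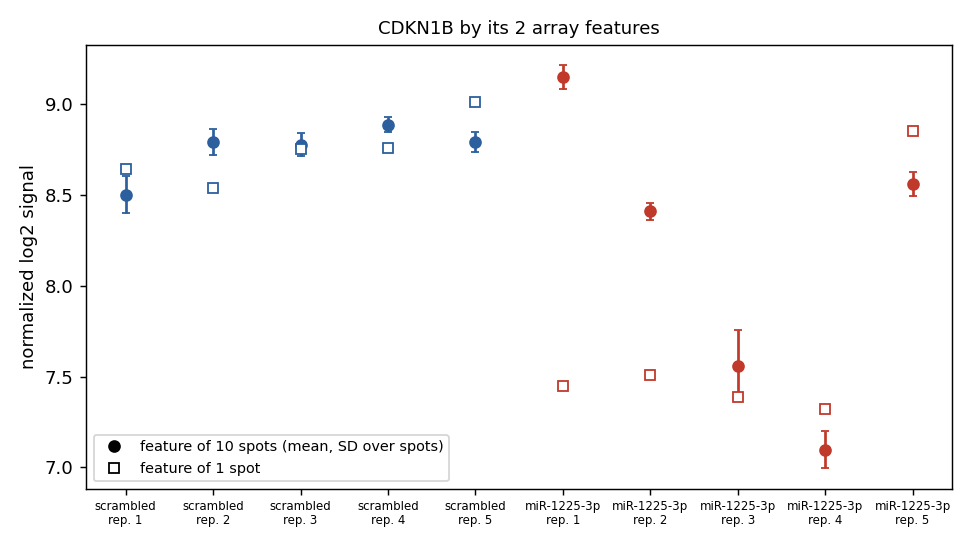
Normalized log2 signal of CDKN1B on each array by its features, the feature of 10 spots (circles, mean and SD over spots) and the feature of 1 spot (squares). On the scrambled arrays both lie between 8.50 and 9.01, while on miR-1225-3p replicate 1 they lie at 9.15 and 7.45.

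CDKN1A (NM_078467), which encodes p21 and is a main target of p53, had log2 signals of 7.16, 6.97, 7.25, 7.22 and 7.57 on the scrambled arrays and 6.83, 6.81, 6.72, 7.02 and 7.17 on the miR-1225-3p arrays. Replicates 4 and 5 of miR-1225-3p lay inside the scrambled range and the other 3 below it. CDKN1A differed by -0.32 on the log2 scale (SE 0.148, 95% confidence interval -0.65 to 0.0056, adjusted p = 0.106 by limma, two-sided exact permutation p = 0.0397), by -0.39 on leaving out miR-1225-3p replicate 5 (adjusted p = 0.0374 by limma), and by -0.50 and -0.12 within slides 1 and 2. CDKN1C (NM_000076), which encodes p57, an imprinted inhibitor, had log2 signals of 11.58, 11.54, 11.42, 11.40 and 11.56 on the scrambled arrays and 11.27, 11.47, 11.55, 11.74 and 11.40 on the miR-1225-3p arrays. All scrambled values lay within the range of the miR-1225-3p values. The log2 fold change was -0.014 (95% confidence interval -0.29 to 0.26, adjusted p = 0.932 by limma, two-sided exact permutation p = 0.913). Its sign changed with the normalization, and scaling to the 75th percentile gave 0.48 (adjusted p = 0.0876 by limma).

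RB1 (NM_000321), which encodes the retinoblastoma protein that these kinases phosphorylate, had log2 signals of 9.53, 9.53, 9.69, 9.47 and 9.70 on the scrambled arrays and 10.08, 9.96, 9.78, 9.64 and 9.71 on the miR-1225-3p arrays. Only miR-1225-3p replicate 4 lay inside the scrambled range, and replicate 5 lay just above it. The log2 fold change was 0.25 (SE 0.127, 95% confidence interval -0.032 to 0.53, adjusted p = 0.139 by limma, two-sided exact permutation p = 0.0317). Within slides 1 and 2 it was 0.38 and 0.21. Scaling to the 75th percentile gave 0.62 (adjusted p = 0.0204 by limma), or 0.46 relative to the median of all genes.

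Replicate 5 of miR-1225-3p lay inside the scrambled range for 7 of the 10 genes, against 65.7% of all genes tested. Replicates 1, 2 and 3 each lay inside it for 1 of the 10 genes and replicate 4 for 2, against 21.6% to 30.3% of all genes. The exceptions for replicate 5 were CDK6, CDKN2C and RB1, where it lay above the scrambled arrays. The 3 tested genes whose signal was most like that of CCND2 over the 10 arrays were NPTN, the unnamed transcript BC157883 and MRPS27, with Pearson r of 0.998, 0.998 and 0.997 across arrays. These correlations span both groups, and the arrays share the same split between miR-1225-3p replicates 1 to 4 and the rest.

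The genes around this pathway were taken from 7 lists of related cell cycle genes, 99 of which were tested. Of these, 43 (43.4%, against 35.1% of all genes tested) passed the threshold in limma, 21 higher and 22 lower, and the median over the lists was -0.03 on the log2 scale. Without miR-1225-3p replicate 5, 69 passed (69.7%, against 55.6% of all genes), 36 higher and 33 lower. With scaling to the 75th percentile 57 passed, 36 higher and 21 lower, beside 7142 of all 17309 genes. Without normalization between arrays 6 passed, 0 higher and 6 lower, beside 1254 of all genes. The share of calls in each direction therefore depended on the scaling, and each count below is from cyclic loess.

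Of 10 E2F and DP genes, 2 were called, both higher (4 higher and 1 lower without replicate 5). These were E2F2 and E2F1, activators of S phase genes, with log2 fold changes of 1.53 ± 0.214 and 0.86 ± 0.148 (SE, adjusted p = 0.0126 and 0.0136 by limma). Of 18 genes known as E2F targets, 7 were higher, 1 was lower and 10 did not pass (10 higher and 4 lower without replicate 5). MCM6, a subunit of the replicative helicase, rose by 0.88 on the log2 scale (adjusted p = 0.0136 by limma). The 1 gene called lower over all 10 arrays was RRM2, a subunit of ribonucleotide reductase, named after its value was seen. Its log2 fold change was -3.04 (adjusted p = 0.0181 by limma). Only 1 miR-1225-3p array, against all 5 scrambled arrays, gave RRM2 a signal well above background. RRM2 thus entered the test through the scrambled arrays alone, where it was higher, which limits both its call and its size. The median over the list was 0.29.

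Of 10 genes of cyclins E and A, CDK2 and the CDK-activating kinase, 4 were higher and 3 lower (5 and 4 without replicate 5). MNAT1, which assembles the CDK-activating kinase that also activates CDK4 and CDK6, was higher by 0.90 on the log2 scale (adjusted p = 0.0165 by limma), and CCNE2, a partner of CDK2, by 0.75 (adjusted p = 0.0213 by limma). CCNA2, the S phase cyclin, fell, with a change of -0.96 (adjusted p = 0.0137 by limma), and all 5 miR-1225-3p arrays lay below all scrambled arrays. CDK2 and CDK3, named after their values were seen, had -2.13 and -2.53 (adjusted p = 0.0146 and 0.0240 by limma). Their features were well above background on 2 and 4 of 5 miR-1225-3p arrays and on all 5 scrambled arrays, so CDK2 met the filter only through the scrambled arrays. Of 5 further inhibitors and pocket proteins, CDKN2A alone was called, at -0.59 (adjusted p = 0.0311 by limma); without replicate 5, 1 was higher and 1 lower. Its locus encodes p16, which binds CDK4 and CDK6 as p18 does, and p14ARF from an overlapping frame, and this feature was not assigned to either.

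Of 20 genes for turnover and folding of D cyclins, CDK4 and p27, 4 were higher and 5 lower (7 and 7 without replicate 5). FBXO4, named after its value was seen, was among those called higher. It was well above background on 3 miR-1225-3p arrays and 1 scrambled array. It therefore met the filter only through the miR-1225-3p arrays, and its call is limited by this. CRYAB and SKP1, parts of ubiquitin ligases described for cyclin D1 and p27, had log2 fold changes of 0.97 and 0.78 (adjusted p = 0.0137 and 0.0136 by limma). CDC37, the co-chaperone that loads CDK4 onto HSP90, had -2.04 (adjusted p = 0.0334 by limma). CDC34, a ubiquitin-conjugating enzyme used in p27 turnover, had -0.91 (adjusted p = 0.0403 by limma). Of 14 transcription factors known to act on these genes, 3 were higher and 5 lower (4 and 7 without replicate 5), with a median of -0.63. SMAD2, named after its value was seen, was among those called lower. It was well above background on 1 miR-1225-3p array and 4 scrambled arrays. It therefore met the filter only through the scrambled arrays, and its call is limited by this. NFKB1 and CREB1 rose by 0.76 and 0.61 on the log2 scale (adjusted p = 0.0216 and 0.0341 by limma), whereas RELA, a partner of NFKB1, had -1.35 and STAT5A, an activator of CCND2, had -0.99 (adjusted p = 0.0257 and 0.0213 by limma). STAT5B, the close relative of STAT5A and also an activator of CCND2, went the other way, at 0.54 (adjusted p = 0.0281 by limma), and is named after its value was seen.

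Of 22 p53 targets besides CDKN1A, 1 was higher and 7 were lower (5 and 9 without replicate 5), with a median of -0.14. BAX, a promoter of apoptosis, was the higher one at 0.39 (adjusted p = 0.0413 by limma). CCNG1, which encodes cyclin G1, and BTG2, an antiproliferative factor, had log2 fold changes of -1.37 and -1.05 (adjusted p = 0.0326 and 0.0126 by limma). ZMAT3 and XPC, named after their values were seen, were among those called lower. They were well above background on 1 and 2 miR-1225-3p arrays and on 5 and 4 scrambled arrays. They therefore met the filter only through the scrambled arrays, and their calls are limited by this. CDKN1A, at -0.32, was not past the threshold.

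**Figure D4:**
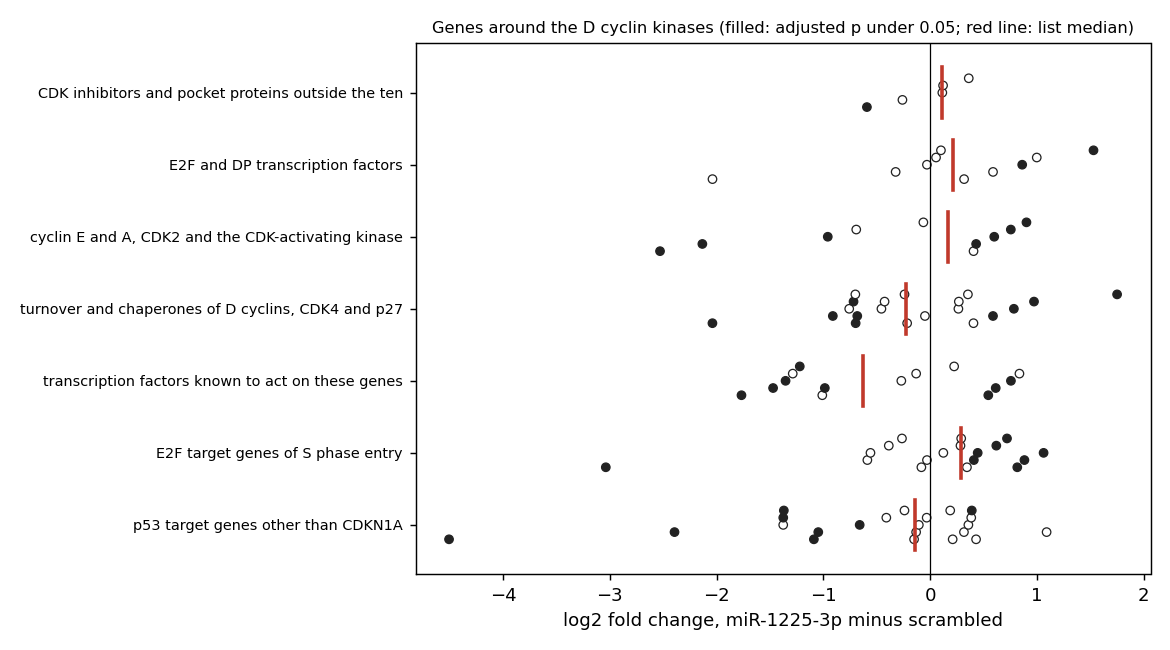
Log2 fold change, miR-1225-3p minus scrambled, of each tested gene in the 7 lists of related genes (filled where the adjusted p from limma was under 0.05; red lines mark the list medians; points are spread vertically only for visibility). Filled points lie on both sides of 0 in 5 of the lists, the E2F and DP list has 2 filled points, both above 0, and the list of further inhibitors has 1, below 0.

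Promoter sequences of 300 bases around the transcription start were in the RefSeq table (GRCh38.p14) for 7 of the 10 genes, and the first start listed for a gene was used. Entries for CCND1, CCND2 and CDKN1C were missing. On both strands, the E2F site TTTCGCGC or TTTGGCGC was found in 1.18% of 27305 promoters and the CRE TGACGTCA in 1.98%, and 0 of the 7 genes had either. The E-box CACGTG, which MYC and other basic helix-loop-helix proteins can bind, was found in 7.43% of promoters and in 3 of the 7 genes, CDK4, CDK6 and CDKN2C. These are the kinases and the inhibitor that binds them, of which CDK6 and CDKN2C were higher and CDK4 was not called. Any link between the E-box and the signals of these genes was not tested. A window of 30 bases is shown for each, 5′ to 3′ on the gene's strand, with the E-box in capitals, at chr7:92836525-92836554 (minus strand) for CDK6, chr1:50960514-50960543 (plus strand) for CDKN2C and chr12:57752508-57752537 (minus strand) for the first of 3 matches in CDK4.
CDK6: gaggccgcggaCACGTGcggagagccgact
CDKN2C: attgtgcacctCACGTGgttagtcacacaa
CDK4: tgtcaagcggtCACGTGtgatagcaacaga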

How the data were processed

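Gene expression was measured in 10 transfected MEG-01 cultures, 5 per group. The authors deposited scanner output, whose processed signal is an intensity after background subtraction, and a table of normalized log2 values for 29271 probes, used as an alternative. The submitters' processing notes and file headers name Agilent Feature Extraction 10.7.3.1, and the methods name another version.

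Control spots (4259) were left out, log2 processed signals of the other 58717 spots were normalized by cyclic loess (limma 3.58.1, R 4.3.3, 3 iterations, span 0.7), 3681 flagged outlier spots were treated as missing, and the spots of each of 42405 probes were averaged. A probe counted as well above background where at least 50% of its spots were. Probes had to be so on at least 3 arrays of 1 group or the other, which 20648 were, and the brightest of these stood for a gene. Accessions of 24910 probes matched a symbol in the RefSeq table of GRCh38.p14. Groups were compared with limma (lmFit, eBayes), and single genes with exact permutation tests over 252 regroupings. The members, the lists of related genes and the tests were chosen with earlier results of these data known. Named genes were all members, up to 2 largest called rises and 2 largest called falls per list (if well above background on every array), and the 3 genes most correlated with CCND2. Genes marked as named after their values were seen lie outside this rule. Some genes covered by this rule are not reported here. Deviations of same-numbered arrays correlated at -0.402 to 0.072, so the numbers do not pair the arrays. The replicates are labelled biological, from transfections done at the same time, and the number of arrays limits the precision. Alternatives covered scaling, background, filters, probe choice, test, slide, replicate number and each array left out. Normexp used the median signal with an offset of 50.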

Additional observations from a re-analysis of the deposited data

Results flagged for a closer look

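In 6 of 56 groups of 5 arrays, over the 10 genes and the genes of the related lists named by the stated rule, 1 array lay apart from the other 4 by Dixon's criterion, where chance gives about 1 in 20, or 2.8 groups. Among the 10 genes this was the case once, for the CDKN1B feature of 10 spots, where scrambled replicate 1 lay at 8.50 against 8.78 for the next array. On miR-1225-3p replicate 5, E2F1 lay at 7.01 (next array 7.49), SKP1 at 14.60 (15.09) and CCNA2 at 9.93 (9.15), each on the side of the scrambled arrays. On scrambled arrays, CCNA2 lay at 10.32 in replicate 3 (next array 10.20) and BTG2 at 8.03 in replicate 5 (8.50).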

How the results depend on the processing

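Over 27 alternatives (26 for CCND1 and CCND2, which the filter on all 10 arrays removes), CCND1, CCND2, CDK6 and CDKN2C kept their direction in every one. So did CCND3, CDKN1A and RB1, which were not called, so a kept direction does not set the called genes apart. CCND2 lost its call with the methods' t-test (adjusted p = 0.0547 by that test) and without a filter on dim probes (adjusted p = 0.0578 by limma). Of the 10 genes, 2 were called without normalization between arrays, 2 with the filter asking for signal on all 10 arrays (of 8 tested), 9 with array weights and 2 within slide 1. In the same order, 1254 of 17309, 4696 of 12008, 12336 of 17309 and 4469 of 17339 genes were called over all genes tested. Within slide 2, 0 were called by limma (0 at an unadjusted p under 0.05), where all genes gave 0 calls and 1225 at an unadjusted p under 0.05. With the replicate number as a block, 0 of the 10, 0 related and 0 of all genes were called by limma (5, 54 and 7461 at an unadjusted p under 0.05). Leaving out 1 array gave 2 to 7 of the 10 genes.

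Related genes called were 6 without normalization, 28 without a filter, 78 with array weights, 0 within slide 2 (7 at an unadjusted p under 0.05), and 19 to 69 when 1 array was left out, against 43. All genes called were 1254, 3420 and 12336 under the first 3 of these settings and 2141 to 9573 when 1 array was left out, against 6082 (2943 higher and 3139 lower). Higher and lower calls were 4561 and 2581 under scaling to the 75th percentile, 3627 and 2507 after quantile normalization and 172 and 1082 without normalization, and the median of all genes was 0.16, 0.076 and -0.26. The change in CDK4 reversed with the 75th percentile (0.0072), that in CDKN1B within slide 1 (0.090), and that in CDKN1C after 75th percentile scaling (0.48), quantile normalization (0.046), no normalization (0.058), array weights (0.027), within slide 2 (0.094) and among the fits leaving out 1 array (-0.078 to 0.040; 0.0071 without miR-1225-3p replicate 5 and 0.0070 without scrambled replicate 1). The methods' t-test called 7 of the 10 genes at its unadjusted threshold and 3 after Benjamini-Hochberg adjustment, and 2 and 1 of these with the methods' fold criterion of over 2 as well. Of all 17309 genes it called 8262 unadjusted and 4700 adjusted, so the 3 members lay near the background share. How many of all genes also met the fold criterion by that t-test was not counted, so the counts of 2 and 1 are no result about the 10 genes. By limma, 2 of the 10 genes and 3007 of all 17309 were called with a fold of over 2. The causes were not tested. Signal over background limits CCND1 and CCND2, which were well above background on 1 and 3 of 5 miR-1225-3p arrays.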
